A study of Homo sapiens with 8 samples.

Results

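Keratins are the intermediate filament proteins of epithelial cells. The keratin genes were taken as every row of the deposited table whose symbol is KRT followed by a number and at most one letter, which left out pseudogenes and keratin-associated proteins, and 55 of 58870 genes matched. They were measured by bulk RNA sequencing in CFPAC-1, an established cell line from a human pancreatic ductal adenocarcinoma. Of the 8 libraries, 4 came from cells with an empty vector and 4 from cells with an ADRA2A transgene, which encodes the alpha-2A adrenergic receptor. Both groups were grown for 72 h in IMDM with 10% fetal bovine serum and received no drug. The promoter of the transgene, and whether each line was a clone or a pool, were not given in the sources used here. The labels do not say that the libraries of a group came from separate cultures, so the p-values measure the spread between these libraries, which may be technical.

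A keratin filament is built from obligate pairs of an acidic type I and a basic type II chain. The type II genes lie side by side on chromosome 12 and most type I genes on chromosome 17, and KRT18 is the type I gene that sits at the end of the type II cluster. Simple epithelia, the pancreatic duct among them, express mainly KRT8 with KRT18, together with KRT7 and KRT19. Stratified epithelia such as epidermis express KRT5 with KRT14 in the basal layer, KRT1 with KRT10 above it, and KRT6, KRT16 and KRT17 after wounding. Hair keratins form the hair shaft, but KRT81 is also found in carcinomas.

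The keratins divided into 5 simple epithelial, 17 stratified epithelial, 7 other epithelial, 9 inner root sheath or companion layer, and 17 hair keratins. Of the 55, 16 had enough counts to be tested. In the ADRA2A cells 12 of these 16 passed edgeR's quasi-likelihood test at a Benjamini-Hochberg adjusted p-value under 0.05, with 4 higher (KRT15, KRT16, KRT19 and KRT20) and 8 lower (KRT5, KRT7, KRT10, KRT17, KRT18, KRT80, KRT81 and KRT86). Over all 14785 genes tested, the same rule called 42.7% of genes, 21.6% as higher and 21.1% as lower. KRT5 passed the filter on low counts through the empty-vector libraries alone and so had to differ. Without it 11 of 15 keratins were called, 4 higher and 7 lower. The keratins' median log2 fold change was -0.10, against 0.00 for all genes tested. Between the libraries of the groups there was no overlap for 10 of the 16 keratins (9 of 15 without KRT5) and for 39.2% of all genes. In a bulk sample, fewer cells that express a keratin and less of its RNA per cell cannot be told apart.

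Library depth was 14427040 to 17528910 estimated counts. ADRA2A was at 0 counts in the 4 empty-vector libraries and at 112, 142, 154 and 172 counts in the ADRA2A libraries, as the labels say. Of 11 ductal markers 10 were expressed well enough to be tested, and the eleventh, CFTR, reached at most 20 counts. Of these 10, 9 were called, 6 higher and 3 lower, where 42.7% of all genes tested were called. The ductal list holds KRT7 and KRT19, which are also among the keratins studied here. Markers of acinar and of endocrine cells reached at most 3.78 estimated counts and 1 count. The summed level of 7 fibroblast markers was 2.04 to 2.49 CPM (counts-per-million) with the empty vector and 1.11 to 1.72 CPM with ADRA2A, with POSTN at 0, COL3A1 at no more than 1 count, COL1A2 at no more than 12 and LUM, the highest, at no more than 25. For 6 immune markers the sums were 121 to 133 and 199 to 212 CPM, nearly all of it from CD68 and LYZ, while CD3E was at 0 and PTPRC at no more than 4 counts. The sum of 5 endothelial markers was 2.05 to 2.71 and 2.64 to 3.35 CPM, with TEK at 0, VWF at no more than 4 counts and CDH5 at no more than 1. Within that sum PECAM1 rose (log2 fold change 1.66, edgeR adjusted p = 8.12e-05) and KDR fell (-1.35, edgeR adjusted p = 0.00234). PECAM1 was at 0.589 to 1.22 CPM with the empty vector and 2.15 to 2.78 CPM with ADRA2A. KDR was at 1.16 to 1.31 CPM and 0.330 to 0.692 CPM. Each gene reached the filter of about 0.645 CPM in all 4 libraries only in its higher group. These 2 differences are therefore descriptions. The part of these marker differences in the keratin results was not tested.

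Among the keratins that differed, KRT81 and KRT86 are the pair whose sequences bear most on how far their counts can be read. Their coding sequences are 94.15% identical over the aligned positions, and a run of 605 bases, coding positions 61 to 665 in both, is the same letter for letter. The first part of that run, positions 61 to 180, is shown with the window in which the genes differ most, positions 1249 to 1308, where capitals mark the 14 bases that differ. The sequences are those of the GENCODE release 44 transcripts, 5′ to 3′.
KRT81 and KRT86, shared: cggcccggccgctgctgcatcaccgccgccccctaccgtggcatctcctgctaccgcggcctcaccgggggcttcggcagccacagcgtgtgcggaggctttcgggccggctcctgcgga
KRT81, most different: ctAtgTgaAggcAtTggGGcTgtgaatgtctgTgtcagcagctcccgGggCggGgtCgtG
KRT86, most different: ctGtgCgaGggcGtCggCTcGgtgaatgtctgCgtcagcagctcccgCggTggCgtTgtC

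A read from the shared run cannot be given to one gene rather than the other by its sequence. Of all stretches of 75 bases in the KRT81 transcript, 36.6% occur in another gene, and 33.0% occur in KRT86. For KRT86 the share was 36.5%, and 28.2% were found in KRT81. KRT18 shared 28.4% of its stretches, mostly with KRT8, whose exons overlap those of KRT18 over 525 bases on the other strand. KRT8 shared 18.8%, mostly with its pseudogenes. No stretch of KRT4, KRT10, KRT15, KRT19, KRT20 or KRT80 occurred elsewhere. KRT7 shared 9.80%, all with its antisense gene KRT7-AS. The remaining tested keratins shared from 2.16% (KRT23) to 15.9% (KRT13).

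Promoters in the RefSeq table (GRCh38.p14) matched 5 of the 16 tested keratins, namely KRT4, KRT5, KRT8, KRT10 and KRT20. Those of the 3 that changed are printed 5′ to 3′, because one of these genes rose and the others fell. For KRT5 only the part upstream of every annotated exon is given. The bases are chr17:40885243-40885492 for KRT20, chr17:40822615-40822864 for KRT10 and chr12:52520531-52520644 for KRT5, all on the minus strand. Capitals mark the TATA box letters TATAAA in KRT10 and the short cyclic AMP response element TGACG, which reads CGTCA on the strand shown, in KRT5.
KRT20: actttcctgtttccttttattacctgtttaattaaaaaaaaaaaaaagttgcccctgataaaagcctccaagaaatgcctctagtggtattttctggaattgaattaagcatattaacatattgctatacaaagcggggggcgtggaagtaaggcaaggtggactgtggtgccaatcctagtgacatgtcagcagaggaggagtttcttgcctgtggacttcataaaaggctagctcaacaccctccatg
KRT10: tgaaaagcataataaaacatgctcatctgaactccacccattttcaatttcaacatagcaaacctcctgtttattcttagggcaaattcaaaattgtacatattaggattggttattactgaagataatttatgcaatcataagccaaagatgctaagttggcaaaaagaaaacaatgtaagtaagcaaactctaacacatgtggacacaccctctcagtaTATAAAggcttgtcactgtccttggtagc
KRT5: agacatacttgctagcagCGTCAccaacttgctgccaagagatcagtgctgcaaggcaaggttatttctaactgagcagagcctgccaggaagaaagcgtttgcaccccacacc

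These promoters were searched on both strands for 6 motifs: the TATA box TATAAA, the full cyclic AMP response element TGACGTCA, its short form TGACG, the AP-1 site TGANTCA, the GC box GGGCGG and the TEAD site GGAATG. Every full element also holds the short form. The only matches in the 3 promoters were the KRT10 TATA box and the KRT5 short element. They lay 29 and 232 bases before the RefSeq start of their gene. For KRT5 that start lies within the GENCODE gene model. The search covered the 250 bases before each RefSeq start, and so also KRT5 bases that are not printed. TATAAA occurred in 21 of the 38 keratin promoters in the table (55.3%) and in 10.7% of all 35116 promoters. TGACG occurred in 10.5% of keratin promoters and 21.2% of all, and GGGCGG in 10.5% and 42.6%. GGAATG was found in 13.2% of keratin promoters and 11.9% of all. Neither the full element nor the AP-1 site occurred in a keratin promoter, and their shares of all promoters were 1.65% and 6.57%. These matches are letters in a window and say nothing of binding.

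Simple epithelial keratins made up nearly all keratin RNA in both groups. Per kb of transcript they held 97.3% ± 0.1 of keratin CPM with the empty vector and 97.8% ± 0.1 with ADRA2A (SD, n = 4 libraries each). Their summed level was 11019 ± 240 CPM and 11246 ± 537 CPM, with overlapping libraries. All 55 keratins together took 1.15% ± 0.02 of the counts in the empty-vector group and 1.16% ± 0.05 in the ADRA2A group. Within this total, KRT19 and KRT20 rose, KRT7 and KRT18 fell, and KRT8 did not pass the test. In the plot of keratin levels, the 4 abundant simple keratins stand above all others.

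**Figure D1:**
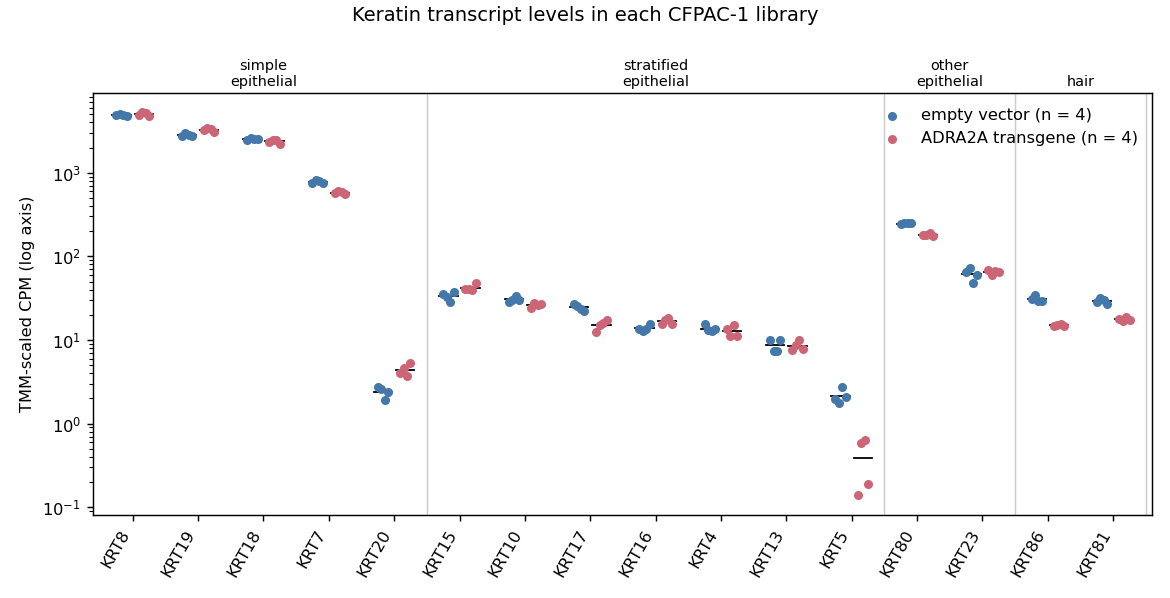
TMM-scaled CPM (log axis) of the 16 tested keratins in each of 8 CFPAC-1 libraries, with points in replicate order from 1 to 4 and a bar at the group mean. KRT8, KRT19, KRT18 and KRT7 lie between 560 and 5259 CPM, and KRT5 lies at 0.138 to 0.630 CPM in the ADRA2A libraries.

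KRT8 (chr12:52897187-52949954), the type II partner of KRT18, was the most abundant keratin. Its level was 4832, 4980, 4885 and 4822 CPM in empty-vector replicates 1 to 4 and 4918, 5259, 5226 and 4754 CPM in ADRA2A replicates 1 to 4. The groups overlapped, and ADRA2A replicate 4 was the lowest library of all. The log2 fold change was 0.05 ± 0.03 (SE), with an edgeR adjusted p-value of 0.24. Without ADRA2A replicate 4 it was 0.07 with an adjusted p-value of 0.0428.

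KRT18 (chr12:52948871-52952906) is the type I chain that pairs with KRT8. It was at 2480, 2579, 2537 and 2521 CPM in the empty-vector libraries and at 2310, 2471, 2487 and 2231 CPM in the ADRA2A libraries. The groups overlapped, since ADRA2A replicate 3 was above empty-vector replicate 1. The log2 fold change was -0.09 ± 0.03 (edgeR adjusted p = 0.0315), and the mean fell by 6.11%. The call was lost when any 1 of 5 libraries was left out (ADRA2A replicate 1 or 4, or empty-vector replicate 2, 3 or 4), with log2 fold changes from -0.09 to -0.06 and adjusted p-values of 0.0576 to 0.115. Because the use of strand in counting is not known, reads of KRT18 and KRT8 in their 525 shared bases may not have been told apart.

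KRT19 (chr17:41523617-41528308) is among the smallest keratins, lacks the tail domain and marks ductal epithelium. Its level was 2768, 2978, 2809 and 2749 CPM with the empty vector and 3225, 3378, 3353 and 3040 CPM with ADRA2A. Every ADRA2A library was above every empty-vector library. KRT19 rose by a log2 fold change of 0.20 ± 0.03 (edgeR adjusted p = 7.64e-05), or 15.0% in the mean.

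KRT7 (chr12:52232520-52252186), a type II keratin of ductal and glandular epithelia, moved the other way. It was at 759, 818, 789 and 760 CPM in the empty-vector libraries and at 567, 597, 590 and 560 CPM in the ADRA2A libraries. All ADRA2A libraries were below all empty-vector libraries. KRT7 fell, with a log2 fold change of -0.43 ± 0.03 (edgeR adjusted p = 2.74e-09). Because the use of strand in counting is not known, reads of KRT7 and KRT7-AS in their shared stretch cannot be told apart. Among all tested genes ranked by CPM per kb, KRT7 went from place 112 to place 151, while KRT8 went from 10 to 8, KRT19 from 18 to 12, and KRT18 was at 23 in both groups.

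KRT20 (chr17:40875889-40885242), the type I keratin of intestinal and gastric surface epithelium, was scarce. Its counts were 47, 38, 33 and 36 in the empty-vector libraries and 58, 70, 64 and 83 in the ADRA2A libraries. In CPM the groups did not overlap, with 1.92 to 2.75 CPM against 3.66 to 5.25 CPM. KRT20 rose by a log2 fold change of 0.87 ± 0.19 (edgeR adjusted p = 0.00112), from a mean of 2.40 ± 0.36 to 4.39 ± 0.70 CPM.

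The abundant keratins moved together within the ADRA2A group, where KRT8, KRT18, KRT19 and KRT7 were all lowest in replicate 4. Ratios between them, taken from CPM per kb in each library, restate the same counts and carry no test. KRT8 over KRT18 was 1.54, 1.53, 1.53 and 1.51 in the empty-vector libraries and 1.69, 1.69, 1.66 and 1.69 in the ADRA2A libraries. The groups did not overlap in this ratio, although they overlapped in the level of each gene. How reads from the exon overlap of KRT8 and KRT18 were divided bears on this ratio and was not tested. KRT19 over KRT18 was 1.14 ± 0.03 and 1.39 ± 0.02 (SD, n = 4), and KRT19 over KRT7 was 4.23 ± 0.04 and 6.56 ± 0.15. Of the simple keratin signal per kb, KRT19 held 28.9% with the empty vector and 32.5% with ADRA2A, KRT18 25.4% and 23.3%, KRT7 6.83% and 4.95%, and KRT8 38.9% and 39.2%.

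**Figure D2:**
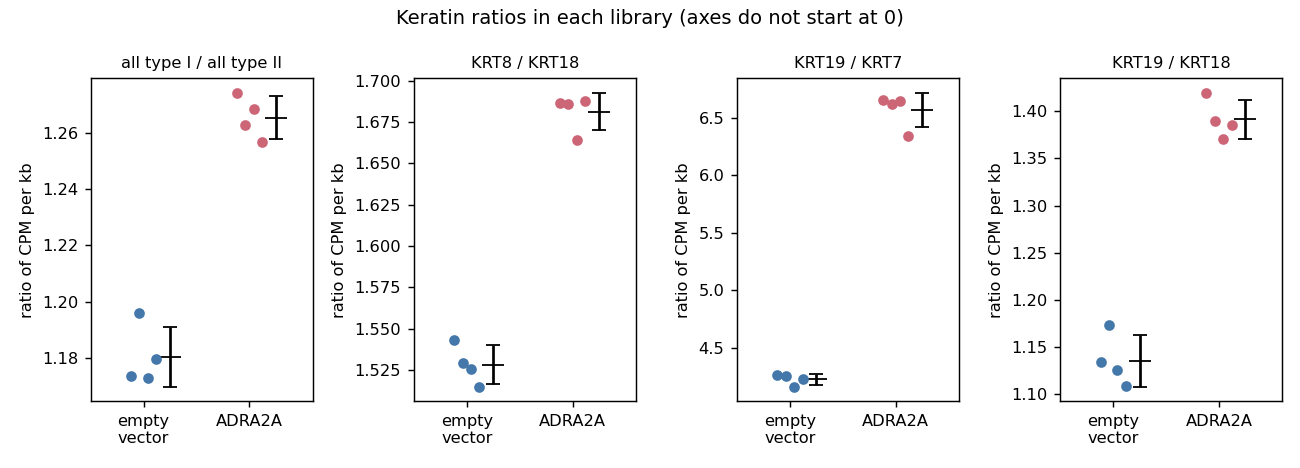
Ratios of CPM per kb in each library for the 4 empty-vector and 4 ADRA2A libraries, with the mean and SD beside the points; the axes do not start at 0. In each of the 4 ratios every ADRA2A library lies above every empty-vector library, with KRT19 over KRT7 at 6.34 to 6.65 against 4.16 to 4.26.

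The 17 stratified epithelial keratins gave 7 tested members, of which 5 passed the test, and 4 of 6 without KRT5. Over all genes tested 42.7% passed. KRT15 and KRT16 rose, and KRT5, KRT10 and KRT17 fell. Their summed level was 128 ± 5 CPM with the empty vector and 122 ± 6 CPM with ADRA2A, with overlapping libraries. KRT14, the basal partner of KRT5, had too few counts to be tested. The wound-associated KRT16 and KRT17 went in opposite directions.

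KRT5 (chr12:52514575-52520530), the type II keratin of basal cells, was above the filter in 4 empty-vector and 0 ADRA2A libraries. Its counts were 34, 26, 47 and 32 with the empty vector and 2, 9, 11 and 3 with ADRA2A. The groups did not overlap, and the level was low even where it was higher, at 2.15 ± 0.41 CPM against 0.388 ± 0.260 CPM. KRT5 fell, with a log2 fold change of -2.42 ± 0.37 (edgeR adjusted p = 2.35e-05), the steepest among the tested keratins. As it entered the test through 1 group, its fall is a description and supports no count.

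KRT17 (chr17:41619442-41624842), a type I keratin of basal and injured epithelium that is also used as a marker of basal-like pancreatic tumours, fell. Its level was 26.8, 25.8, 23.2 and 22.4 CPM in the empty-vector libraries and 12.4, 15.2, 16.1 and 17.3 CPM in the ADRA2A libraries. Every ADRA2A library was below every empty-vector library. The log2 fold change was -0.69 ± 0.09 (edgeR adjusted p = 5.48e-06).

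KRT16 (chr17:41609778-41615899), which is induced together with KRT17 in wounded epidermis and lies next to it in the genome, rose slightly. It was at 13.5, 12.7, 13.5 and 15.7 CPM with the empty vector and at 15.7, 17.6, 18.2 and 15.4 CPM with ADRA2A. The groups overlapped, because empty-vector replicate 4 was as high as the lower ADRA2A libraries. The log2 fold change was 0.27 ± 0.09 (edgeR adjusted p = 0.0189), and the call was lost without ADRA2A replicate 3 (adjusted p = 0.0697) or without empty-vector replicate 2 (adjusted p = 0.0573).

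KRT15 (chr17:41513745-41522529), a type I keratin of basal progenitors in stratified epithelia, was the most abundant stratified keratin. Its level was 35.6, 32.4, 28.7 and 37.0 CPM in the empty-vector libraries and 40.6, 40.5, 39.3 and 47.4 CPM in the ADRA2A libraries. The groups did not overlap, and ADRA2A replicate 4 stood above the other ADRA2A libraries. KRT15 rose by a log2 fold change of 0.33 ± 0.08 (edgeR adjusted p = 0.00154).

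KRT10 (chr17:40818117-40822614), the type I keratin of suprabasal epidermis, fell from 30.7 ± 2.2 to 26.4 ± 1.6 CPM. The libraries held 28.3, 30.5, 33.6 and 30.2 CPM with the empty vector and 24.2, 28.0, 26.5 and 27.0 CPM with ADRA2A. The groups came close without overlapping. The log2 fold change was -0.21 ± 0.07 (edgeR adjusted p = 0.015), and the call was lost without ADRA2A replicate 1 (adjusted p = 0.0604) or empty-vector replicate 3 (adjusted p = 0.0658).

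KRT4 (chr12:52806549-52814116) and KRT13 (chr17:41500981-41505705), the pair of mucosal stratified epithelia such as the oesophagus, did not pass the test. KRT4 was at 15.5, 13.0, 12.7 and 13.6 CPM and at 13.4, 11.3, 15.2 and 11.1 CPM, a log2 fold change of -0.10 ± 0.11 (edgeR adjusted p = 0.479). KRT13 was at 10.0, 7.33, 7.38 and 9.95 CPM and at 7.68, 8.71, 10.0 and 7.78 CPM, a log2 fold change of -0.02 ± 0.13 (edgeR adjusted p = 0.934). For both genes the groups overlapped, and the KRT13 value ran from -0.11 to 0.06 when 1 library was left out.

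Of the 7 other epithelial keratins, KRT80 and KRT23 could be tested. KRT80 (chr12:52168996-52192014), a type II keratin linked to epithelial differentiation, was the fifth most abundant keratin in CPM. It was at 242, 248, 250 and 248 CPM with the empty vector and at 181, 178, 188 and 173 CPM with ADRA2A. The groups did not overlap, and KRT80 fell by 27.2% (log2 fold change -0.46 ± 0.04, edgeR adjusted p = 2.98e-09). KRT23 (chr17:40922700-40937646), a type I keratin found in several adenocarcinomas, was at 64.6, 71.7, 48.2 and 60.02 CPM and at 69.3, 60.4, 67.2 and 65.3 CPM. Its empty-vector libraries spread more widely than its ADRA2A libraries and enclosed them, and the log2 fold change of 0.10 ± 0.08 did not pass the test (edgeR adjusted p = 0.328). Without empty-vector replicate 3, the lowest library, the value was 0.0025, and without replicate 2, the highest, it was 0.19.

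**Figure D3:**
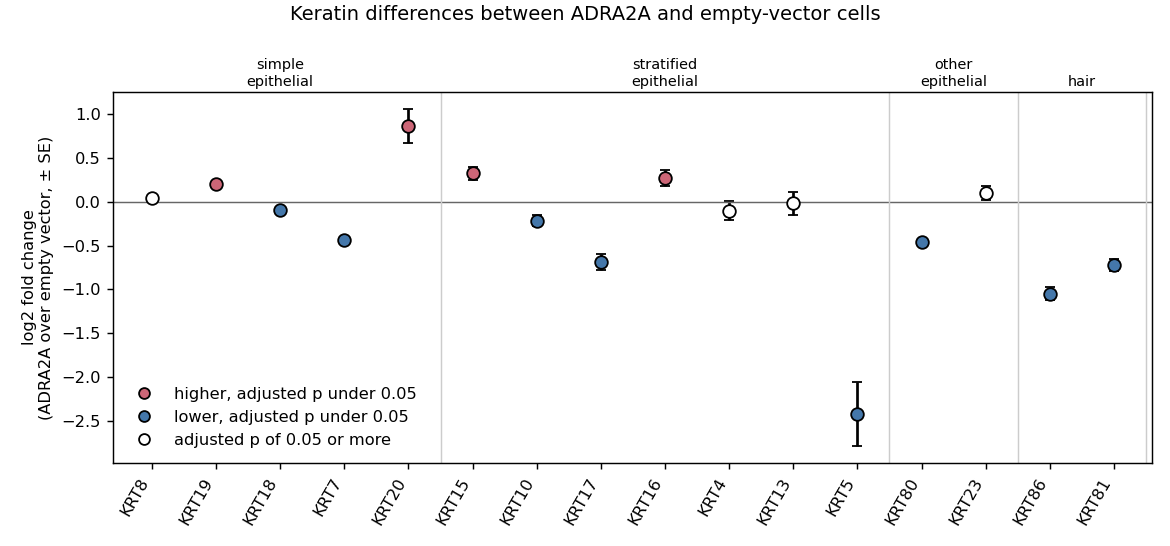
Log2 fold change (ADRA2A over empty vector, ± SE derived from edgeR's F statistic, n = 4 libraries a group) of the 16 tested keratins by class. Filled points passed an adjusted p-value of 0.05. KRT5 lies lowest at -2.42 and KRT20 highest at 0.87, and KRT4, KRT8, KRT13 and KRT23 did not pass.

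Hair keratins were represented by KRT81 and KRT86, both type II genes of the hair cortex. KRT81 protein has also been used to sort pancreatic carcinomas into subtypes. KRT86 (chr12:52249300-52309163) was at 30.8, 34.9, 29.5 and 29.4 CPM with the empty vector and at 14.7, 15.0, 15.6 and 14.9 CPM with ADRA2A. KRT81 (chr12:52285913-52291534) was at 28.5, 31.6, 29.7 and 26.9 CPM and at 18.1, 16.7, 18.6 and 17.1 CPM. In both genes every ADRA2A library was below every empty-vector library. The log2 fold changes were -1.05 ± 0.07 for KRT86 (edgeR adjusted p = 6.75e-10) and -0.72 ± 0.07 for KRT81 (edgeR adjusted p = 8.42e-08).

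Because of the shared run printed earlier, the split of reads between KRT81 and KRT86 is uncertain. Their estimated counts had decimals in 4 libraries, while their sum was whole to within 0.02 in all 8. The summed counts were 1012, 980, 1019 and 860 with the empty vector and 473, 480, 598 and 506 with ADRA2A. The sum does not depend on how reads were divided between these 2 genes, and its log2 fold change was -0.88 ± 0.06 (edgeR adjusted p = 1.96e-10). The gene model of KRT86 also spans KRT81 on the opposite strand and overlaps the end of the KRT7 model, but its exons overlap those of neither. They overlap a pseudogene on the same strand over 126 bases. On the other strand they overlap long non-coding RNA genes over at most 221 bases each. The use of strand in counting was not given in the sources used here.

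The remaining 39 keratins were below the filter. No count was seen in any library for 23 of them, which allows at most 3 counts, or 0.171 to 0.208 CPM, in a library, and 10 others had at most 1 or 2 counts. All 9 inner root sheath and companion layer keratins were among the 23. The 6 others with at least 3 counts somewhere were KRT78, KRT6A, KRT83, KRT3, KRT32 and KRT9. KRT78 had 1 to 12 counts with the empty vector and 4 to 8 with ADRA2A, and KRT6A had 3 to 8 and 0 to 3. KRT83, a hair keratin beside KRT81, had 1 to 6 and 0 to 1, and the corneal KRT3 had 0 to 4 and 0 to 1. KRT32 had at most 1 count with the empty vector and 3 with ADRA2A, and KRT9 had 0 and at most 3.

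By filament type, of 9 tested type I genes, 4 rose, 3 fell and 2 did not pass the test. Of 7 tested type II genes, none rose and 5 fell (KRT5, KRT7, KRT80, KRT81 and KRT86), and without KRT5 the count was 4 of 6. Over all genes tested, 21.6% were called higher and 21.1% lower. The difference between the types was not tested, and KRT8 was called higher without ADRA2A replicate 4. At an unadjusted p-value under 0.05, 0 type II genes were higher with edgeR, DESeq2 or limma voom. The ratio of all type I to all type II CPM per kb was 1.17, 1.20, 1.17 and 1.18 in the empty-vector libraries and 1.27, 1.26, 1.27 and 1.26 in the ADRA2A libraries. The log2 change of this ratio between the groups was 0.10 with canonical transcripts, 0.162 with the longest and 0.174 with the median transcript length. The ratio did not overlap between groups, while the summed CPM of type I (5530 ± 143 and 5803 ± 274) and of type II (5986 ± 105 and 5844 ± 267) did.

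The order of the chromosome 12 genes was looked at after their values were seen. From the start of the cluster, KRT80, KRT7, KRT86 and KRT81 fell, KRT5 came next, and KRT4, KRT8 and KRT18 beyond it had log2 fold changes between -0.10 and 0.05. On chromosome 17 neighbours differed in direction, as KRT16 and KRT17 did, and KRT15 and KRT19 rose beside KRT13, which did not pass the test. The 27 keratins of the chromosome 12 cluster span 52168996 to 52952906, and the 28 of chromosome 17 span 40654665 to 41624842.

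The other tested genes within 1 Mb of the chromosome 12 cluster had a median log2 fold change of 0.23 over 33 genes, of which 18 rose and 3 fell, where 21.6% of all genes tested rose and 21.1% fell. Before KRT80, 3 of 9 genes rose and 2 fell, with a median of 0.19. Beyond KRT18, 15 of 24 rose and 1 fell, with a median of 0.24. The difference between the sides was not tested. The nearest tested gene before KRT80, ATG101, was at 0.00 ± 0.08. The nearest after KRT18, EIF4B, rose by 0.11 ± 0.03 on the log2 scale (edgeR adjusted p = 0.0112). Around the chromosome 17 cluster 61 genes had a median of 0.11, with 23 higher and 10 lower. The nearest tested gene before that cluster, AC073508.3, was at 0.15 ± 0.11 (edgeR adjusted p = 0.325). The nearest after KRT17, EIF1, was at -0.08 ± 0.03 (edgeR adjusted p = 0.0652). TMEM99, inside the cluster, was at -0.04 ± 0.06 (edgeR adjusted p = 0.631). The plot of the clusters shows these genes. Whether the keratin differences extend to the surrounding region was not tested.

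**Figure D4:**
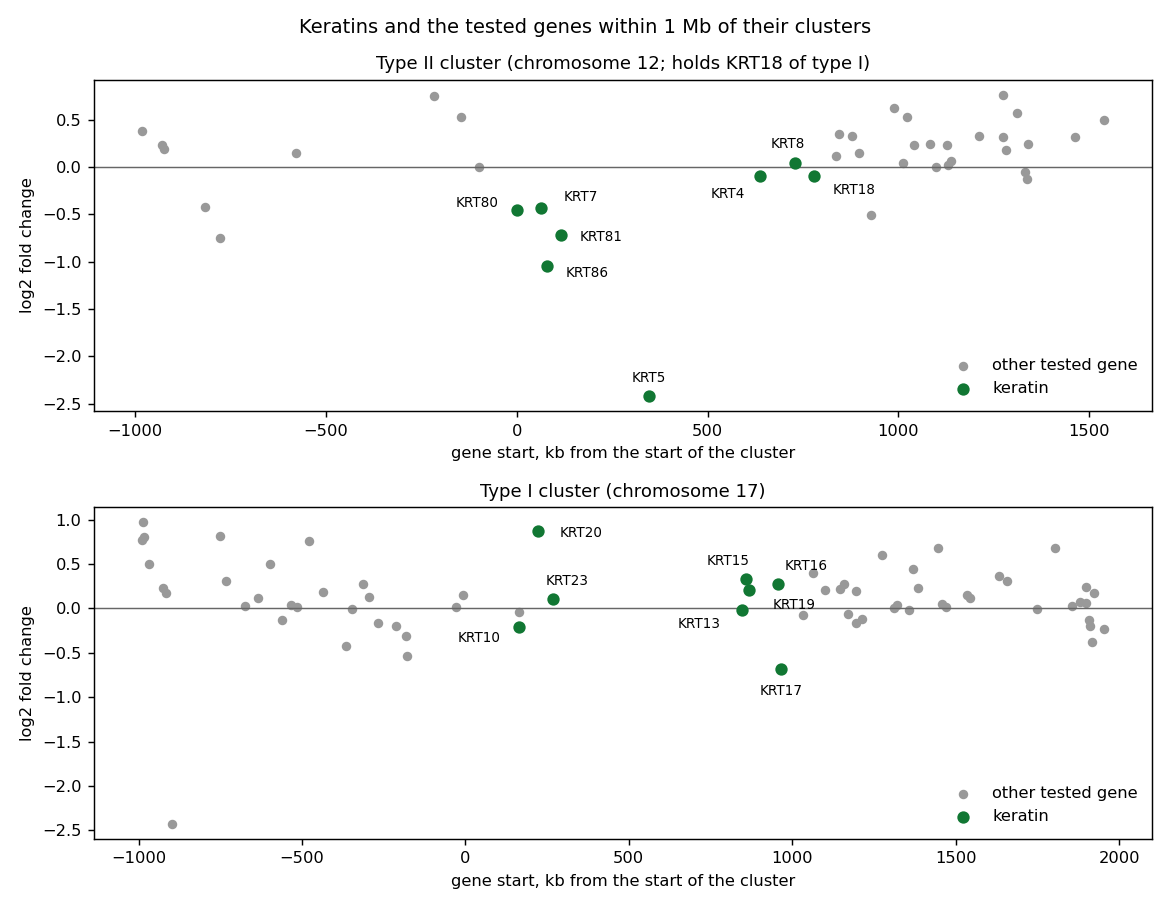
Log2 fold change (ADRA2A over empty vector) of tested keratins and of other tested genes against the distance in kb of their start from the start of each cluster. On chromosome 12, KRT80, KRT7, KRT86, KRT81 and KRT5 lie at -0.43 or lower, and the 33 other genes within 1 Mb have a median of 0.23.

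Other intermediate filament genes form the nuclear lamina and the filaments of non-epithelial cells. Of 15, 7 were tested, 4 fell and none rose, where 21.1% of all genes tested fell. None was higher at an unadjusted p-value under 0.05 with edgeR, DESeq2 or limma voom. NES, the neural and mesenchymal progenitor filament, fell from 63.6 ± 3.4 to 33.1 ± 1.3 CPM (log2 fold change -0.94 ± 0.05, edgeR adjusted p = 3.0e-11). The lamin LMNB2 fell by 0.27 ± 0.04 on the log2 scale (edgeR adjusted p = 5.11e-05). The lens filament gene BFSP1 fell by 0.47 ± 0.16 (edgeR adjusted p = 0.0267). BFSP1 was scarce, at 5.30 ± 0.56 and 3.84 ± 0.74 CPM, with overlapping libraries. The fourth that fell, chosen after its values were seen, was the lamin LMNA at -0.16. VIM, the mesenchymal filament often set against keratins, was at 1574 ± 42 and 1577 ± 72 CPM (log2 fold change 0.00 ± 0.03, edgeR adjusted p = 0.961).

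Keratin filaments end at desmosomes, where cells join, and at hemidesmosomes, where they hold the basement membrane. All 16 genes of the list of linkers were tested, and 3 rose and 5 fell. These 8 of 16 are near the 42.7% called over all genes, and the median log2 fold change was -0.04. COL17A1, the hemidesmosomal collagen, rose from 64.0 ± 3.3 to 145.7 ± 4.0 CPM (log2 fold change 1.19 ± 0.04, edgeR adjusted p = 6.09e-14). ITGB4, the integrin chain of the hemidesmosome, rose by 0.26 and the desmosomal plakoglobin JUP by 0.20 on the log2 scale. The desmosomal plakophilins PKP1 and PKP2 fell by 0.79 and 0.37, and DSP, the desmoplakin that binds keratin directly, fell by 0.25 (255 ± 11 to 214 ± 14 CPM). The other two that fell, named after their values were seen, were TCHP at -0.25 and PNN at -0.14, which encode the keratin-binding proteins trichoplein and pinin. PLEC, the plectin that ties keratin to hemidesmosomes, had a log2 fold change of -0.06 ± 0.06 (edgeR adjusted p = 0.453).

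Genes of the cornified envelope, the protein shell of terminally differentiated keratinocytes, were nearly silent. Of 21, 3 were tested and 0 passed, where 42.7% of all genes tested passed. At an unadjusted p-value under 0.05 the count was also 0 with edgeR, DESeq2 and limma voom. The 3 tested genes reached at most 32 counts in a library, with SEs of 0.29 to 0.40, which limits what these counts of 0 can show. IVL, which encodes involucrin, missed the filter at 0.586 to 1.39 CPM with the empty vector and 0.346 to 0.462 CPM with ADRA2A. With no filter IVL was called lower (log2 fold change -1.48, edgeR adjusted p = 0.00449). It also entered 5 of 8 fits that left out 1 library, but there through the empty-vector libraries alone, so that its lower call in them supports nothing.

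Of 25 genes known to regulate keratin genes, 21 were tested, 7 rose and 4 fell. These 52.4% are near the 42.7% called over all genes, and the median log2 fold change was -0.01. The intestinal factor CDX2 rose from 2.02 ± 0.61 to 5.67 ± 0.25 CPM (log2 fold change 1.5 ± 0.19, edgeR adjusted p = 2.95e-06). The epithelial factors ELF3 and KLF5 rose by 0.67 and 0.20 on the log2 scale. GRHL3, a factor of epidermal barrier formation, fell by 0.69, the duct factor SOX9 by 0.21 and the suprabasal factor KLF4 by 0.21, the last with an edgeR adjusted p-value of 0.0484. The epithelial factor EHF, also named after its values were seen, was the fourth that fell, at -0.10 ± 0.04 (edgeR adjusted p = 0.0467). TP63, the factor of basal cells, was at 0.525 ± 0.135 and 0.770 ± 0.324 CPM (log2 fold change 0.53 ± 0.39, edgeR adjusted p = 0.292).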

How the data were processed

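RNA of 8 CFPAC-1 samples was isolated in TRIzol and read on a NextSeq instrument, per the labels' protocols. The submitters' processing notes name cutadapt, STAR, RSEM, DESeq2 and hg38. The authors deposited estimated counts per gene from RSEM, which divides reads that fit several genes and so gives decimals (4.61% to 4.90% of entries). The annotation release, read length and strand were not given in the sources used here.

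Estimated counts were rounded, genes were kept by filterByExpr (about 0.645 CPM in 4 libraries), and libraries were scaled by TMM (factors 0.9938 to 1.0055). All 8 libraries were fitted with the group as the single term in edgeR 4.0.16 (quasi-likelihood) under R 4.3.3, with p-values adjusted over 14785 genes. DESeq2 1.42.0 and limma 3.58.1 (voom) were alternatives. CPM are TMM-scaled, and values after ± are SDs over 4 libraries or, for fold changes, SEs. Each SE was derived as the absolute log2 fold change over the square root of edgeR's F statistic. Levels per kb use the length of the canonical transcript. Positions are from GENCODE 44 on hg38, which held 99.4% of the genes. Keratin levels are precise to counting error and library spread only.

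The keratins, their classes and the lists were chosen with earlier results of these data known. Every keratin that passed the filter is named, as is every other one with at least 3 counts in a library. In the other lists the 3 highest and 3 lowest called genes are named, with VIM, DSP, PLEC, TP63, SOX9 and KLF5. One gene that this rule names is not reported here.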

Additional observations from a re-analysis of the deposited data

Results flagged for a closer look

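KRT15 in ADRA2A replicate 4 was at 47.4 CPM, while the other ADRA2A libraries were at 39.3 to 40.6 CPM. The gap of this library to the next took 0.843 of the group's whole range, which is above the limit of Dixon's test for 4 samples. It was 1 of 42 groups examined in this way, and chance gives about 1 in 20.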

How the results depend on the processing

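The count of called keratins was 12 of 16 with DESeq2, limma voom, RLE or upper quartile factors and with pseudogene counts added. In these fits 39.4% to 43.1% of all genes were called. The count was 11 of 15 with a mean of at least 50 counts per library, where 47.3% of all genes were called. It was also 11 of 15 with KRT81 and KRT86 summed, an alternative chosen after seeing the data, where 42.7% were called. Without a filter 32 keratins were tested and 14 were called, while the share of all genes called was 26.2%. The calls added there were KRT83 (log2 fold change -3.35, edgeR adjusted p = 0.0263) and KRT6A. Leaving out 1 library gave 10 to 12 called keratins, while the share of all genes called was 38.1% to 40.4%, and no called keratin reversed its direction in any fit that tested it. The log2 change between groups of the type I to type II ratio, 0.10 with canonical transcripts, was 0.162 with the longest transcript and 0.174 with the median transcript length; the cause was not tested. The count of called cornified envelope genes was 0, and 1 (IVL) with no filter; leaving out 1 library gave 0 to 1, with 1 in the 5 of 8 fits where IVL passed the filter. Deviations of same-numbered libraries from their group means correlated between -0.042 and 0.07, and 1 of 4 empty-vector libraries correlated best with its own number, so the numbers were not taken as pairs. With the replicate number as a block 12 of 16 keratins and 43.3% of all genes were called. Counts under 10 per library, as for KRT3, KRT6A, KRT9, KRT32 and KRT83, limit what depth can show.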
